A study of Mus musculus with 18 samples.

Results

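Stage 2 (S2) was compared with stage 1 (S1) in invariant natural killer T (iNKT) cells of the wild-type (WT) mouse thymus, the step at which these cells gain the surface protein CD44. The 6 arrays were taken by their titles, 3 of WT S2 and 3 of WT S1, out of 18 in the study. All 18 came from C57BL/6 mice, and every sort took cells that carried the T cell receptor beta chain, bound a CD1d tetramer loaded with the lipid PBS57 and lacked CD24. S2 cells were CD44 positive and NK1.1 negative, and S1 cells were negative for both. S3 cells, positive for both, are given here only as levels (3 WT arrays). Cells of the same S2 and S1 gates were also sorted from Mst1KO mice (3 arrays each), in which Cre recombinase driven by Cd4 deletes the floxed Mst1 alleles in developing T cells. The design text gives 3 mice per genotype, and age was not given in the sources used here. Whether a replicate number marks a mouse is not stated, so a p-value reflects only how far these arrays scatter, and some of that scatter may be technical.

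iNKT cells are T cells with a nearly fixed receptor for lipids on CD1d. They become effector cells within the thymus, under the control of the transcription factor PLZF, encoded by Zbtb16. Effector iNKT cells are commonly divided into NKT1 cells, which rely on T-bet and make interferon-gamma, NKT17 cells, which make IL-17, and NKT2 cells, which make IL-4 and IL-13. NK1.1 is found mainly on NKT1 cells, so the S2 gate, which lacks it, can hold cells of several kinds.

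Values are log2 expression as deposited by the authors, 1 unit being a doubling. Differences are S2 minus S1 on that scale, ± SE from limma's linear model of all 18 arrays, with n = 3 arrays per group throughout. A gene was called when its Benjamini-Hochberg adjusted limma p over the 13034 genes tested was under 0.05. Array medians lay between 4.81 and 4.93, so a gene below about that level was near the signal of unexpressed probe sets, and its change is compressed. Arrays resembled each other with r across all probe sets of 0.9756 to 0.9781 within S2, 0.9814 to 0.9862 within S1 and 0.9756 to 0.9823 between the stages. The leading principal component of the 6 arrays held 41.7% of their variance and separated S2 from S1. The next, with 21.1%, set replicate 3 of both stages apart from the other arrays.

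Among called genes, S2 cells differed from S1 cells mainly by higher expression, which did not hold over all genes. Of 13034 genes, 501 were called (3.84%), of which 352 rose (2.7%) and 149 fell (1.14%). An unadjusted limma p under 0.05, counted below for some lists, was found in 2143 of the 13034 genes. The S2 arrays did not overlap the S1 arrays in 2590 genes (19.9%), lying all above in 1311 (10.1%) and all below in 1279 (9.81%). Whatever their p, 48.1% of the 13034 genes had a positive difference, and the median over all of them was -0.01. In 493 of the called genes (3.78% of all genes) the arrays did not overlap. Increases of over 1 log2 unit were called in 110 genes, and decreases of that size in 23. Increases of over 2 units were called in 22 genes, while a decrease of that size was called for Slc15a1 alone. Of the increases, 32 had an S1 mean under the lowest array median, and of the decreases 16 had an S2 mean under it. The counts depended on single arrays, since 295 genes were called without S2 replicate 1 (208 higher, 87 lower), 309 without S1 replicate 1 (233 higher, 76 lower) and 321 without S1 replicate 2 (220 higher, 101 lower). In all 6 fits that left out an array, 179 of the increases and 52 of the decreases were called. Cells were measured in bulk, so fewer cells of a type and less RNA per cell cannot be told apart.

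**Figure D1:**
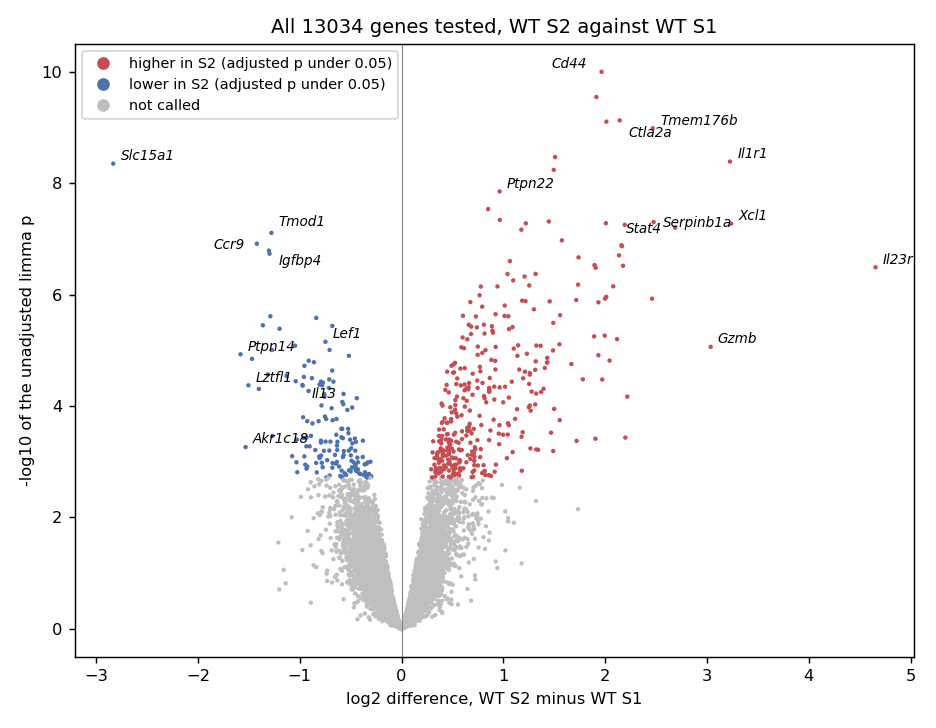
Each of 13034 genes by its log2 difference (x axis, WT S2 minus WT S1) and the -log10 of its unadjusted limma p (y axis), with called increases in red, called decreases in blue and other genes in grey. Called increases (352) outnumber called decreases (149) and reach further from 0, with Il23r at 4.66 on one side and Slc15a1 at -2.83 on the other.

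The genes of the sort gates were read first. Cd44, whose protein the S2 gate selects, had 7.71, 7.44 and 7.33 on the S2 arrays, against 5.50, 5.52 and 5.56 on the S1 arrays. This is a difference of 1.97 ± 0.14 (limma adjusted p = 1.32e-06) that checks the sort and is not a finding. Klrb1c, which encodes NK1.1, had 5.4, 4.97 and 5.45 in S2 cells, against 2.61, 2.94 and 3.70 in S1 cells, although both gates exclude NK1.1 protein (2.19 ± 0.23, adjusted p = 4.07e-05). The S1 values of Klrb1c were under the array medians, and its S2 values were little above them. Its mean in S3 cells, which are sorted as NK1.1 positive, was 8.51. Cd24a, for the marker excluded from every gate, averaged 4.34 ± 0.35 in S2 cells and 4.19 ± 0.25 in S1 cells (SD, n = 3 each), under the array medians. Zbtb16 had 11.48, 11.44 and 11.46 in S2 cells, against 11.79, 11.81 and 11.72 in S1 cells, near the top of the scale in both (-0.31 ± 0.12, adjusted p = 0.185).

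The IL-23 receptor gene Il23r, which lets cells receive the cytokine that maintains IL-17 producers, had the largest increase. It had 10.40, 9.80 and 9.56 on the S2 arrays, against 5.15, 4.95 and 5.70 on the S1 arrays. Every S2 array was far above every S1 array, and the difference of the means was 25.2-fold (4.66 ± 0.56, adjusted p = 0.000127). The other genes with increases of over 3 units were Xcl1, a chemokine that draws cross-presenting dendritic cells, Il1r1, the signalling receptor for IL-1, and Gzmb, the cytotoxic protease granzyme B.

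Xcl1 had 9.45, 7.54 and 8.78 in S2 cells, against 5.68, 5.44 and 4.94 in S1 cells (3.24 ± 0.34, 9.43-fold). Il1r1 had 8.73, 8.17 and 8.0 in S2 cells, against 5.43, 4.50 and 5.29 in S1 cells (3.23 ± 0.29, 9.36-fold). Gzmb had 8.76, 6.06 and 8.26 in S2 cells, against 4.16, 4.30 and 5.52 in S1 cells (3.04 ± 0.48, 8.20-fold). The groups did not overlap in any of the 3 genes, but S2 replicate 2 was the lowest S2 array for Xcl1 and Gzmb, and in Gzmb it lay close to S1 replicate 3. The limma adjusted p was 4.07e-05 for Xcl1, 7.3e-06 for Il1r1 and 0.00122 for Gzmb, and each was called in all 6 fits that left out an array.

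Promoters of Il23r, Xcl1, Gzmb and the chemokine receptor gene Ccr6 are shown as examples of matches to motifs of the ROR family, to which the protein of Rora belongs, of the T-box family, to which T-bet belongs, and of AP-1, of which Fos, Fosb and Junb rose. No Il1r1 promoter is shown. Each stretch runs 5′ to 3′ on the gene's own strand from 250 bases before to 50 bases after the transcription start, from RefSeq (GRCm38.p6). Capitals mark the match to a 7-letter motif searched on both strands: TAGGTCA for ROR proteins, GGTGTGA for T-box proteins and TGACTCA for AP-1. The Il23r stretch (chr6:67491806-67492105, minus strand) has a ROR motif starting 67 bases before the start. The Ccr6 stretch (chr17:8235793-8236092, plus strand) has the reverse complement of that motif at 44 bases. The Xcl1 stretch (chr1:164935473-164935772, minus strand) has the T-box motif at 188 bases. The Gzmb stretch (chr14:56262285-56262584, minus strand) has the reverse complement of the AP-1 motif at 58 bases.
Il23r: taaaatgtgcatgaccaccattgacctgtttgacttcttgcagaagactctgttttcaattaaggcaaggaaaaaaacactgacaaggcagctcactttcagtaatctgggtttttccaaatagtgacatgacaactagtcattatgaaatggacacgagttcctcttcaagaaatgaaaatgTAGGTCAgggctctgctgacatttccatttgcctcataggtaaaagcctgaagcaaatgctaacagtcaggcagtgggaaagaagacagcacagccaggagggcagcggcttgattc
Ccr6: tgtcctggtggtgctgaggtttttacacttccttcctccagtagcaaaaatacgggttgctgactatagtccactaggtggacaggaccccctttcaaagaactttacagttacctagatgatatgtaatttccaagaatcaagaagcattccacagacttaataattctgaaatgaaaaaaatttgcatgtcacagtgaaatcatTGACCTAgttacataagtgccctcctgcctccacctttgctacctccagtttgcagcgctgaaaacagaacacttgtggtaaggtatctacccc
Xcl1: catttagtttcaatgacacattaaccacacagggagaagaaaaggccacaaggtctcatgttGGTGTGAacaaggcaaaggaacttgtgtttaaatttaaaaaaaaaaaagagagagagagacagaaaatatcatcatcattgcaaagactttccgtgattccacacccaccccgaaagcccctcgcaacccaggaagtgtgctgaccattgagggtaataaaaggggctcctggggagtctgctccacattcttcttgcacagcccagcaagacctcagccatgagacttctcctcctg
Gzmb: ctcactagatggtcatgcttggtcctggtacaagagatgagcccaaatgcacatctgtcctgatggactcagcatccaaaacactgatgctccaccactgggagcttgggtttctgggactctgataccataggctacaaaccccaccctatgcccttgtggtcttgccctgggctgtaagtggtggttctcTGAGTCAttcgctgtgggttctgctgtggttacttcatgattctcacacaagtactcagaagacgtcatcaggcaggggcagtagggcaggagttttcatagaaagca

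A promoter was found for 10213 of the 13034 genes, taking the first start where several are listed. The ROR motif was in 12 of 271 called increases with a promoter (4.43%), in 2 of 123 called decreases (1.63%) and in 2.03% of all 10213. Within the effector lists it was in 2 of 15 NKT17 genes and 3 of 16 NKT1 genes, so these matches did not set the NKT17 genes apart. The T-box motif was in 5.17% of increases, 3.25% of decreases and 3.43% of all, and the AP-1 motif in 6.27%, 0.813% and 3.69%. A match is a string in a window and was not tested as a binding site.

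**Figure D2:**
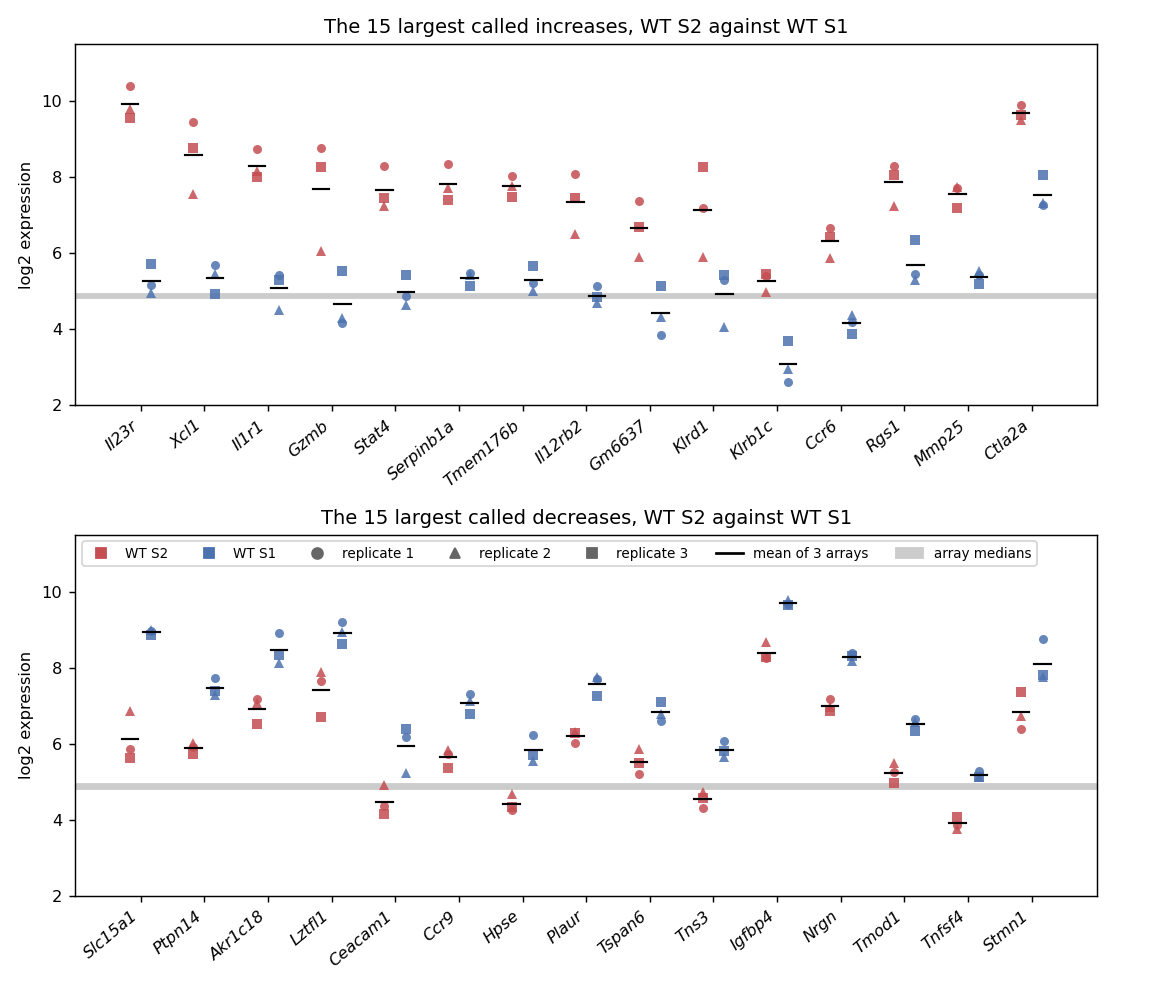
Log2 expression (y axis) of the 15 genes with the largest called increases and the 15 with the largest called decreases whose arrays did not overlap, with WT S2 in red left of WT S1 in blue. Marker shapes are replicates, black bars are means of 3 arrays and the grey band spans the array medians (4.81 to 4.93). Among the increases, S2 replicate 2 is the lowest S2 array for Xcl1, Gzmb, Stat4, Il12rb2, Klrd1, Rgs1, Ccr6, Klrb1c, Ctla2a and Gm6637.

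Genes of the NKT17 program rose together. Members of this and the other lists were chosen with earlier results of these data known. The shares called in a list are thus not independent of that choice. Of 21 genes on the NKT17 list 19 were tested. Of these, 14 rose (73.7%, against 2.7% of all genes) and none fell (1.14% of all genes), with a median difference of 1.49. The S2 arrays lay above the S1 arrays in 15 (10.1% of all genes). The count of increases was 14 or 15 whichever array was left out. Il22 was below the filter at 2.14 in S2 cells and 2.0 in S1 cells. Il23r and Il1r1 are members. Tmem176b, a membrane protein gene abundant in IL-17-producing T cells, had 8.02, 7.77 and 7.47 in S2 cells, against 5.21, 5.0 and 5.65 in S1 cells (2.47 ± 0.20, adjusted p = 2.72e-06). Serpinb1a, a protease inhibitor, had 8.35, 7.70 and 7.40 in S2 cells, against 5.49, 5.42 and 5.12 in S1 cells (2.48 ± 0.26, adjusted p = 4.07e-05). Ccr6, the receptor for CCL20, had 6.67, 5.88 and 6.43 in S2 cells, against 4.19, 4.37 and 3.89 in S1 cells (2.18 ± 0.26, adjusted p = 0.000124). All 3 genes were near or below the array medians in S1 cells and clear of them in S2 cells.

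The other called NKT17 genes were Il17re, the receptor chain for IL-17C (1.90 ± 0.23), the syndecan Sdc1 (1.72 ± 0.23), the kinase Blk (2.0 ± 0.30), the aquaporin Aqp3 (1.49 ± 0.22), the aryl hydrocarbon receptor Ahr (1.49 ± 0.24), the leukotriene B4 receptor Ltb4r1 (1.26 ± 0.22), Lingo4 (1.26 ± 0.25), Tmem176a (2.01 ± 0.27) and the transcription factor Maf (1.01 ± 0.14). Adjusted p ran up to 0.00608 in Lingo4. The cytokine genes themselves were not called. Il17a had 5.62, 4.91 and 5.16 in S2 cells, against 4.95, 4.39 and 4.78 in S1 cells (0.52 ± 0.20, adjusted p = 0.202). Il17f was at -0.35 ± 0.20 (adjusted p = 0.406), and Rora, a nuclear receptor of the ROR family, at -0.26 ± 0.18 (adjusted p = 0.506).

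Genes of the NKT1 program also rose on the S2 arrays. Of 21 on the list, all tested, 16 rose (76.2%, against 2.7% of all genes) and none fell, with a median difference of 1.41. The count was 13 to 17 without single arrays. Tbx21, which encodes T-bet, had 8.70, 8.37 and 8.80 in S2 cells, against 7.32, 7.29 and 7.63 in S1 cells (1.21 ± 0.15, adjusted p = 0.000168). Stat4, which carries the IL-12 signal to the nucleus, had 8.29, 7.24 and 7.46 in S2 cells, against 4.87, 4.63 and 5.42 in S1 cells (2.69 ± 0.29, adjusted p = 4.34e-05). Il12rb2, the inducible chain of the IL-12 receptor, had 8.08, 6.5 and 7.46 in S2 cells, against 5.14, 4.68 and 4.83 in S1 cells (2.46 ± 0.33, adjusted p = 0.000329). Each gene was higher on all S2 arrays than on any S1 array, by the widest margin in Stat4.

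Other members that rose were Ly6c2, a surface protein of memory-like T cells (2.01 ± 0.16), the granule protein gene Nkg7 (1.91 ± 0.23), the chemokine receptor Cxcr3 (1.25 ± 0.16), the SLAM family receptor Slamf7 (2.12 ± 0.32) and the chemokine Ccl5 (1.41 ± 0.24). Ifng itself was not called. It had 7.14, 6.4 and 6.68 in S2 cells, against 6.18, 5.74 and 6.45 in S1 cells, with overlapping groups (0.62 ± 0.20, adjusted p = 0.115). The shared IL-12 and IL-23 receptor chain Il12rb1 was not called either (0.20 ± 0.11, 95% interval of the difference -0.05 to 0.44).

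The 2 programs stood differently in S3 cells. The mean level over the 19 NKT17 genes was 6.36, 6.19 and 6.30 on the S1 arrays, 8.14, 7.76 and 7.63 on the S2 arrays and 6.4, 6.65 and 6.13 on the S3 arrays. Over the 21 NKT1 genes it was 6.15, 6.00 and 6.41 in S1, 7.97, 7.15 and 7.88 in S2 and 9.84, 9.88 and 9.84 in S3. The NKT17 mean was thus highest in S2, while the NKT1 mean in S2 lay between those of S1 and S3. Il1r1 averaged 5.07 in S1, 8.30 in S2 and 5.45 in S3, and Gzmb averaged 4.66, 7.69 and 11.88 in S1, S2 and S3. Il23r varied widely within S3, where its SD was 1.82 (n = 3).

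**Figure D3:**
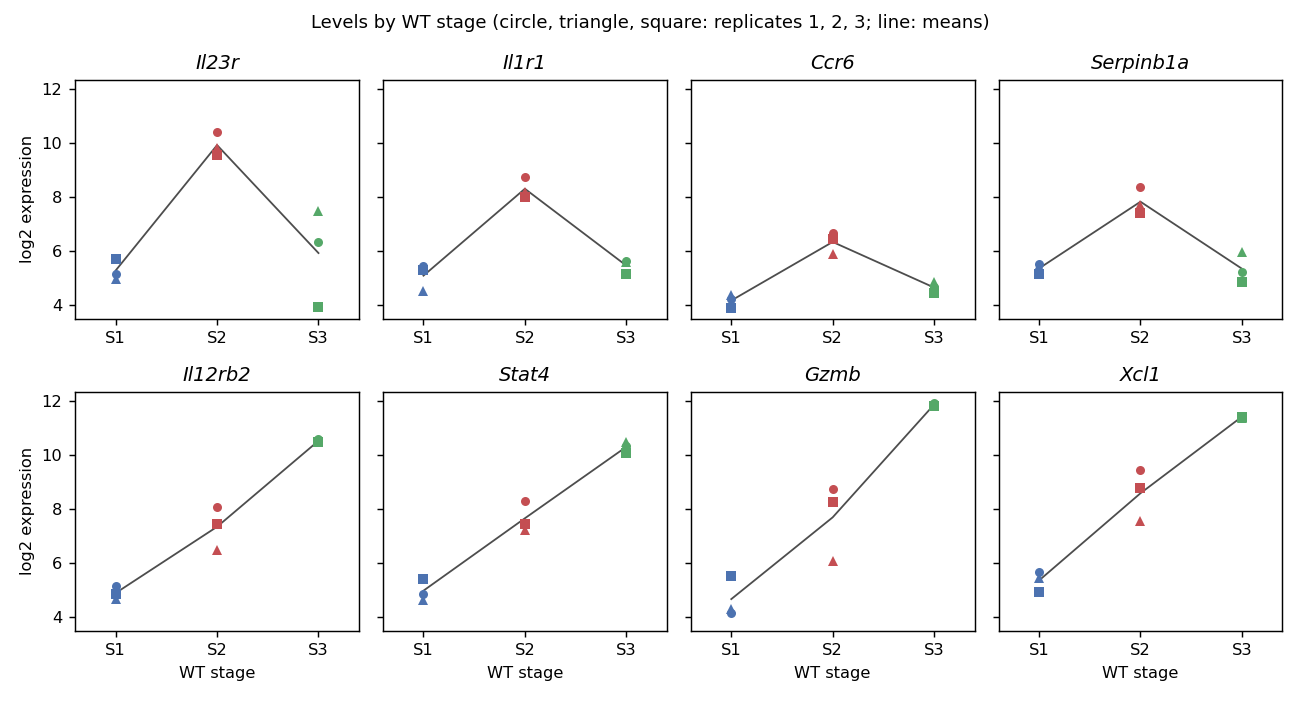
Log2 expression (y axis) of 4 NKT17 genes (top) and 4 NKT1 or cytotoxic genes (bottom) on each WT array by stage (x axis), with shapes for replicates and a line through the means of 3 arrays. Il23r, Il1r1, Ccr6 and Serpinb1a have their highest mean in S2, and Il12rb2, Stat4, Gzmb and Xcl1 in S3.

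The S2 arrays were unequal in these programs. The median SD of the NKT1 genes was 0.507 in S2 and 0.278 in S1, while over all genes it was 0.156 in S2 and 0.135 in S1. S2 replicate 2 was the lowest S2 array in 19 of 21 NKT1 genes (90.5%) and in 13 of 15 NK receptor genes, against 34.4% of all genes. S2 replicate 3 was lowest in 14 of 19 NKT17 genes (73.7%, against 29.9% of all genes), and S2 replicate 1 was lowest in 23 of 24 mitosis genes (95.8%, against 35.7%). Their part in the results was not tested. Without S2 replicate 2, 17 of the NKT1 genes were called higher, without S2 replicate 3 15 of the NKT17 genes, and without S2 replicate 1 no mitosis gene.

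NKT2 genes did not rise. Of 14 tested, 3 fell (21.4%, against 1.14% of all genes) and none rose, with a median difference of -0.20. The 3 were Il13, Lef1 and Ccr7, of which Lef1 and Ccr7 are also on the list of conventional mature T cell genes below. These falls are therefore not read as a decrease of an NKT2 program. Il13 had 7.54, 7.10 and 7.47 in S2 cells, against 8.30, 8.40 and 8.32 in S1 cells (-0.97 ± 0.18, adjusted p = 0.00339). Lef1, a TCF-family transcription factor of immature and naive T cells, had 10.42, 10.47 and 10.27 in S2 cells, against 11.22, 11.23 and 10.95 in S1 cells (-0.75 ± 0.12, adjusted p = 0.00108). Ccr7, the lymph node and medulla homing receptor, was at -0.74 ± 0.20 (adjusted p = 0.0499), a call lost without S2 replicate 1 (adjusted p = 0.218), S2 replicate 3 (0.136), S1 replicate 1 (0.199) or S1 replicate 2 (0.142). Il4 was at 0.08 ± 0.12, with a 95% interval of -0.17 to 0.33, and Il17rb, the IL-25 receptor chain, at -0.01 ± 0.18 with an interval of -0.39 to 0.36. Gata3 (-0.17 ± 0.08) and Irf4 (0.21 ± 0.13) were not called. Unlike Il13, Il4 had overlapping groups, 9.44, 9.37 and 9.30 in S2 cells against 9.21, 9.29 and 9.39 in S1 cells.

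Many cytokine receptors rose. Of 31 tested, 12 rose (38.7%, against 2.7% of all genes) and none fell, with a median of 0.23. Without single arrays 9 to 13 rose. Beside Il23r, Il1r1, Il12rb2 and Il17re, both chains of the IL-18 receptor rose. Il18rap had 8.29, 7.72 and 8.08 in S2 cells, against 5.98, 5.38 and 6.33 in S1 cells (2.14 ± 0.25, adjusted p = 9.23e-05). Il18r1 rose less, with 10.46, 10.24 and 10.35 in S2 cells, against 9.61, 9.46 and 9.60 in S1 cells (0.79 ± 0.11, adjusted p = 0.000391). The ligand-binding chain thus had a smaller change from a clear S1 signal, and the accessory chain a larger one.

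The high-affinity IL-2 receptor chain Il2ra had 8.33, 7.78 and 7.29 in S2 cells, against 6.69, 5.91 and 6.15 in S1 cells (1.55 ± 0.24, adjusted p = 0.00118). The IL-4 receptor Il4ra rose by 1.30 ± 0.18 and the interferon-gamma receptor Ifngr1 by 1.09 ± 0.16 (adjusted p = 0.000429 and 0.000693). Il7r, the IL-7 receptor, had 11.85, 11.79 and 11.44 in S2 cells, against 11.36, 11.35 and 11.11 in S1 cells, without overlap and without passing the test (0.42 ± 0.12, adjusted p = 0.0562). Il27ra was at 0.23 ± 0.08 (adjusted p = 0.126). A further 3 calls depended on single arrays. Il2rb, the shared IL-2 and IL-15 receptor chain (0.49 ± 0.10, adjusted p = 0.0103), was not called without S2 replicate 1 or S1 replicate 2, and its adjusted p ran up to 0.0658 over the 6 fits. Il10rb (0.45 ± 0.11) was called in 2 and Il17rc (0.86 ± 0.23) in 1 of these fits, with adjusted p up to 0.113 and 0.204.

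Chemokine receptors moved in both directions. Of 12 tested, 4 rose and 2 fell (33.3% and 16.7%, against 2.7% and 1.14% of all genes). Ccr9, the receptor for the thymic and gut chemokine CCL25, had 5.72, 5.83 and 5.37 in S2 cells, against 7.30, 7.12 and 6.77 in S1 cells (-1.42 ± 0.16, adjusted p = 6.94e-05). Ccr6 rose, as given above, and Cxcr3, the receptor for interferon-induced chemokines, had 8.80, 8.74 and 9.04 in S2 cells, against 7.70, 7.29 and 7.82 in S1 cells. Cxcr6, a receptor of tissue-resident lymphocytes, had 10.51, 10.34 and 10.23 in S2 cells, against 9.98, 9.75 and 9.78 in S1 cells (0.53 ± 0.10, adjusted p = 0.00694). The remaining increase, Ccr8 (0.88 ± 0.24, adjusted p = 0.0481), was called without S2 replicate 2 but in no other fit that left out an array, with adjusted p up to 0.203. Of the decreases, Ccr7 was described with the NKT2 genes, and 1 of the 12 fell without S2 replicate 1, S2 replicate 3, S1 replicate 1 or S1 replicate 2.

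Of 17 secreted cytokines and chemokines tested, 3 rose and 1 fell (17.6% and 5.88%, against 2.7% and 1.14% of all genes). Ltb, lymphotoxin beta, had 11.14, 10.92 and 10.96 in S2 cells, against 10.33, 10.30 and 10.45 in S1 cells (0.65 ± 0.10, adjusted p = 0.000986), and Xcl1 and Ccl5 were the other increases. Il13 was the decrease. Among TNF family members and co-receptors 3 of 19 rose (15.8%, against 2.7% of all genes). Tnfrsf18, the costimulatory receptor GITR, was at 0.64 ± 0.12 (adjusted p = 0.00365). Tnfsf4, the gene for OX40 ligand, which was not on that list, fell to 3.87, 3.76 and 4.08 in S2 cells, against 5.27, 5.13 and 5.13 in S1 cells (-1.27 ± 0.20, adjusted p = 0.00131). Its S2 values were under the array medians.

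Of 44 lineage transcription factors tested, 7 rose and 4 fell (15.9% and 9.09%, against 2.7% and 1.14% of all genes), with a median of 0.02. Besides Stat4, Tbx21, Maf and Ahr, the increases included Bhlhe40, a repressor that supports cytokine production, with 7.80, 7.49 and 7.44 in S2 cells, against 6.39, 6.04 and 6.33 in S1 cells (1.32 ± 0.21, adjusted p = 0.00121). Ikzf3, the gene for Aiolos, had 9.67, 9.66 and 9.80 in S2 cells, against 9.20, 9.18 and 9.21 in S1 cells (0.51 ± 0.09, adjusted p = 0.00195). Runx3 was at 0.82 ± 0.21 (adjusted p = 0.0418) and was not called without S2 replicate 1, S2 replicate 3, S1 replicate 1 or S1 replicate 2, with adjusted p up to 0.195. The arrays of each stage were close together in Ikzf3 and spread in Runx3, where S1 replicate 3 overlapped S2 replicate 2.

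The factors that fell were Lef1, Id3, Ikzf4 and Sox4. Id3, an inhibitor of E proteins induced by T cell receptor signals, had 8.30, 8.32 and 8.28 in S2 cells, against 8.97, 9.0 and 8.85 in S1 cells (-0.64 ± 0.13, adjusted p = 0.00954). Ikzf4, the gene for Eos, was at -0.76 ± 0.14 (adjusted p = 0.00458). Sox4, a factor of immature lymphocytes, was at -0.89 ± 0.20 (adjusted p = 0.0161), and at an adjusted p of 0.0715 without S1 replicate 3. The arrays of Id3 were nearly equal within each stage. The S3 means of Lef1, Id3, Ikzf4 and Sox4 were 9.53, 6.31, 5.32 and 4.64, each under the S2 mean.

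Immediate early genes, which T cells transcribe within minutes of receptor stimulation or stress, rose often. Of 29 tested, 14 rose (48.3%, against 2.7% of all genes) and none fell, with a median of 0.42. The S2 arrays lay above the S1 arrays in 20 (10.1% of all genes). The count of increases was 10 to 15 without single arrays. Junb, an AP-1 subunit, had 10.88, 10.62 and 10.80 in S2 cells, against 9.66, 9.73 and 10.01 in S1 cells (0.97 ± 0.10, adjusted p = 4.07e-05). Fos had 8.57, 7.72 and 7.74 in S2 cells, against 6.62, 6.75 and 7.08 in S1 cells (1.19 ± 0.21, adjusted p = 0.00288), and Fosb rose by 1.14 ± 0.18. Jun (0.37 ± 0.14) and Jund (0.32 ± 0.11) were not called.

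Feedback genes of the same list rose with them. The phosphatase gene Dusp1 rose by 0.74 ± 0.11, the NF-kappaB inhibitor Tnfaip3 by 0.82 ± 0.12, the mRNA decay factors Zfp36 by 0.59 ± 0.09 and Zfp36l1 by 0.43 ± 0.08, and the antiproliferative gene Btg2 by 0.78 ± 0.10, with adjusted p of at most 0.00374. The list's mean level was 8.44, 8.18 and 8.25 on the S2 arrays and 7.80, 7.78 and 7.92 on the S1 arrays. In S3 it was 8.75, 8.72 and 8.77. The S2 arrays lay above all S1 arrays and below all S3 arrays on this list.

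**Figure D4:**
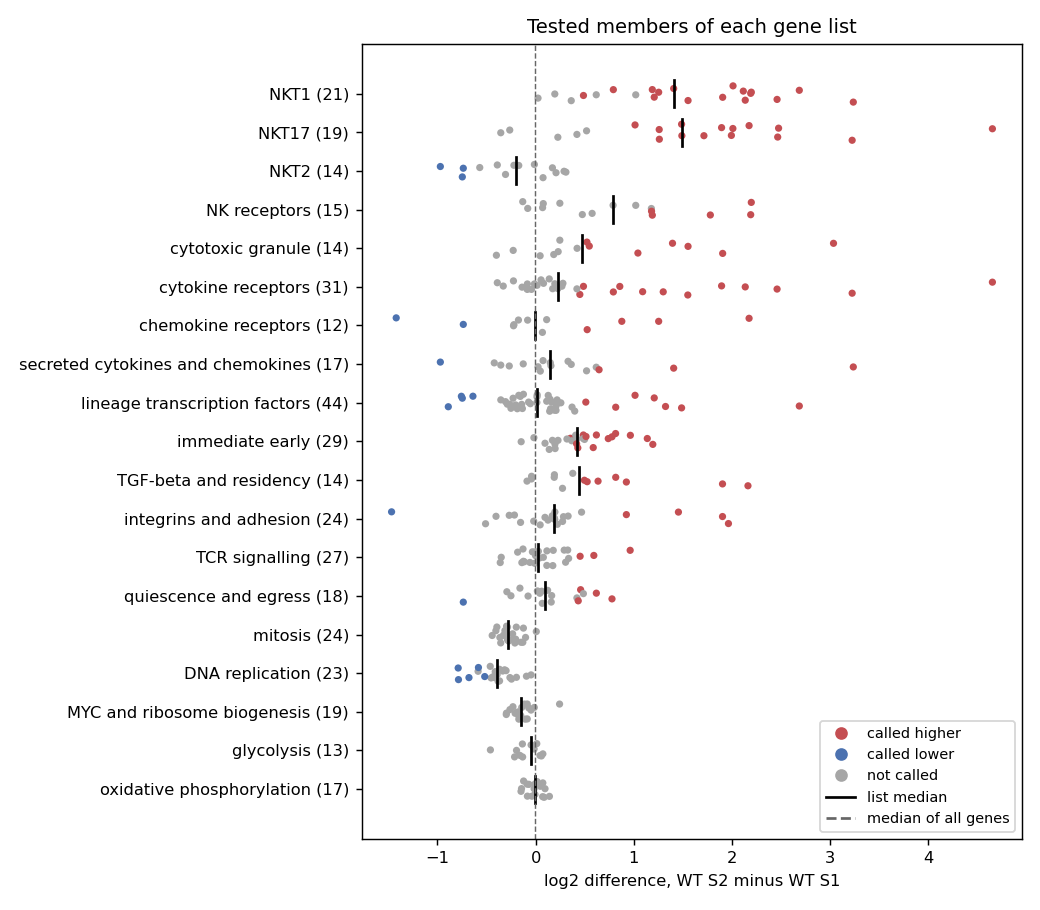
Log2 difference, WT S2 minus WT S1 (x axis), of every tested member of 19 gene lists, with the number tested in brackets, called increases in red, called decreases in blue, list medians as bars and the median of all genes (-0.01) as a dashed line. The NKT17 (1.49) and NKT1 (1.41) medians lie furthest to the right, and all 23 DNA replication genes lie left of 0.

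Of 15 NK receptor genes tested, 5 rose (33.3%, against 2.7% of all genes) and none fell (median 0.79). The list averaged 4.93, 4.24 and 5.08 on the S2 arrays and 3.70, 3.83 and 4.17 on the S1 arrays. On the S3 arrays it averaged 8.04, 8.59 and 8.22. The S1 averages were under the array medians and the S2 averages near or under them, so changes of dim members are compressed. Klrb1f, of the NKR-P1 family, had 6.75, 6.53 and 6.80 in S2 cells, against 4.51, 4.91 and 5.31 in S1 cells (1.78 ± 0.31, adjusted p = 0.00294), and Klrb1c was given with the gates. The other calls rested on single arrays. Klrd1, which encodes CD94, had 7.2, 5.89 and 8.28 in S2 cells, against 5.29, 4.05 and 5.43 in S1 cells (2.20 ± 0.49, adjusted p = 0.0169). It was not called without S2 replicate 1 (adjusted p = 0.0644), S2 replicate 3 (0.0766) or S1 replicate 2 (0.0958). The list had 2 called members without S2 replicate 1, S2 replicate 3 or S1 replicate 2 and 3 without S1 replicate 1. Members that share a probe set with another gene, Klra1, Klra3, Klra7 and Klrb1a, were not tested. Related genes of this family can also cross-hybridise, so their values are uncertain.

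Of 14 cytotoxic granule genes 7 rose (50%, against 2.7% of all genes) and none fell (median 0.47), and 4 rose without S1 replicate 1. Gzmc, which lies beside Gzmb, had 6.02, 4.71 and 5.06 in S2 cells, against 3.55, 4.13 and 3.93 in S1 cells (1.40 ± 0.26, adjusted p = 0.00365). Ctsw, a cathepsin of cytotoxic cells, had 11.47, 11.19 and 11.51 in S2 cells, against 10.84, 10.84 and 10.85 in S1 cells (0.55 ± 0.10, adjusted p = 0.00289). Prf1, the gene for perforin, had 7.14, 6.22 and 6.19 in S2 cells, against 5.44, 5.21 and 5.77 in S1 cells (1.04 ± 0.23, adjusted p = 0.0156). The groups did not overlap in any of these genes, and Prf1 was not called without S2 replicate 1, S1 replicate 1 or S1 replicate 2, with adjusted p up to 0.0846.

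Of 14 TGF-beta and residency genes 7 rose (50%, against 2.7% of all genes) and none fell (median 0.44). Without S2 replicate 1, S2 replicate 3, S1 replicate 1 or S1 replicate 2, 4 rose. Rgs1, which dampens chemokine receptor signals, had 8.30, 7.24 and 8.04 in S2 cells, against 5.46, 5.29 and 6.34 in S1 cells (2.16 ± 0.25, adjusted p = 7.09e-05). Itgae, the integrin chain CD103, had 10.34, 9.97 and 10.21 in S2 cells, against 9.35, 9.10 and 9.28 in S1 cells (0.92 ± 0.15, adjusted p = 0.00122). Itga1, the collagen-binding chain CD49a, had 7.77, 5.33 and 5.38 in S2 cells, against 4.16, 4.36 and 4.24 in S1 cells. S2 replicate 1 was far above the other arrays in Itga1 (1.90 ± 0.43, adjusted p = 0.0175), and the call was lost without S1 replicate 1 (adjusted p = 0.0671).

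Of 24 integrin and adhesion genes 4 rose and 1 fell (16.7% and 4.17%, against 2.7% and 1.14% of all genes). The increases include Cd44, whose protein the S2 gate selects, so its rise is not a finding. Without single arrays 3 to 6 rose, and 2 fell without S1 replicate 3. Cd226, the activating receptor DNAM-1, had 9.86, 9.59 and 9.81 in S2 cells, against 8.28, 7.80 and 8.81 in S1 cells (1.46 ± 0.20, adjusted p = 0.00034). Ceacam1, an adhesion and inhibitory receptor, fell to 4.35, 4.92 and 4.14 in S2 cells, against 6.17, 5.24 and 6.4 in S1 cells (-1.47 ± 0.24, adjusted p = 0.00171). In Ceacam1 S1 replicate 2 came close to S2 replicate 2.

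Of 27 T cell receptor signalling genes 3 rose (11.1%, against 2.7% of all genes) and none fell (median 0.03). Without S2 replicate 1, 1 rose. Ptpn22, a phosphatase that restrains proximal receptor signals, had 10.06, 9.90 and 10.19 in S2 cells, against 9.05, 9.09 and 9.12 in S1 cells (0.96 ± 0.09, adjusted p = 1.85e-05), the increase called in all 6 fits that left out an array. Of 18 quiescence and egress genes 4 rose and 1 fell (22.2% and 5.56%, against 2.7% and 1.14% of all genes). Without S2 replicate 1 or S1 replicate 2, 2 rose. Btg1, an antiproliferative gene, had 9.27, 8.97 and 8.77 in S2 cells, against 8.55, 8.35 and 8.25 in S1 cells (0.62 ± 0.11, adjusted p = 0.00379). The egress receptor S1pr1 was at 0.07 ± 0.16, and Klf2, which drives its transcription, at -0.25 ± 0.21, both uncalled. Of 11 Hippo pathway genes 1 rose (9.09%, against 2.7% of all genes), the kinase gene Lats2 (0.54 ± 0.12, adjusted p = 0.0187). It was not called without S2 replicate 3 (adjusted p = 0.0851) or S1 replicate 2 (0.103). S100a4, a calcium-binding protein gene of effector T cells, rose by 0.79 ± 0.13 (adjusted p = 0.00144). It was the 1 call among 9 S100 and annexin genes (11.1%, against 2.7% of all genes). Lists with 1 call are not read as results about the list.

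The decreases outside these lists were led by Slc15a1, a transporter of small peptides. It had 5.86, 6.85 and 5.63 on the S2 arrays, against 8.98, 8.99 and 8.87 on the S1 arrays (-2.83 ± 0.25, adjusted p = 7.3e-06). The S1 arrays were nearly equal, the S2 arrays were spread, and the S3 mean was 4.07. Igfbp4, an insulin-like growth factor binding protein of naive T cells, had 8.26, 8.67 and 8.27 in S2 cells, against 9.67, 9.77 and 9.64 in S1 cells (-1.30 ± 0.15, adjusted p = 8.94e-05). Its S3 mean was 5.74.

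Plaur, the urokinase receptor, had 6.03, 6.30 and 6.28 in S2 cells, against 7.70, 7.74 and 7.26 in S1 cells (-1.36 ± 0.20, adjusted p = 0.000683). Nrgn, a calmodulin-binding protein known from neurons, had 7.17, 6.96 and 6.85 in S2 cells, against 8.37, 8.16 and 8.30 in S1 cells (-1.29 ± 0.18, adjusted p = 0.000513). Ptpn14, a phosphatase, was at -1.58 ± 0.25, Lztfl1 at -1.50 ± 0.27, heparanase (Hpse) at -1.40 ± 0.26, the tetraspanin Tspan6 at -1.31 ± 0.23, the focal adhesion gene Tns3 at -1.30 ± 0.15 and the actin-capping gene Tmod1 at -1.28 ± 0.14. These 6 were called in all 6 fits that left out an array. Akr1c18 (-1.53 ± 0.36, adjusted p = 0.0223) was not called without S2 replicate 3 (0.0894) or S1 replicate 1 (0.113). Stmn1, a microtubule regulator, was at -1.27 ± 0.28 (adjusted p = 0.0161) and was not called without S2 replicate 1 (0.0919) or S1 replicate 1 (0.0876).

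The remaining large increases were Ctla2a, a cysteine protease inhibitor, with 9.91, 9.51 and 9.62 in S2 cells, against 7.26, 7.31 and 8.04 in S1 cells (2.14 ± 0.17, adjusted p = 2.58e-06). Mmp25, a membrane-bound matrix metalloproteinase, had 7.71, 7.74 and 7.18 in S2 cells, against 5.44, 5.52 and 5.19 in S1 cells (2.16 ± 0.24, adjusted p = 7.09e-05). Gm6637, a predicted gene, had 7.37, 5.90 and 6.68 in S2 cells, against 3.83, 4.33 and 5.14 in S1 cells (2.22 ± 0.42, adjusted p = 0.00458). None of the 3 overlapped between the stages.

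Genes of cell division had small negative differences. All 23 DNA replication genes tested had negative differences, with a median of -0.39 and a range of -0.79 to -0.05. Of these genes 5 fell (21.7%, against 1.14% of all genes). Tyms, which makes thymidylate for DNA, had 7.94, 8.13 and 8.32 in S2 cells, against 8.92, 8.96 and 8.87 in S1 cells (-0.79 ± 0.15, adjusted p = 0.00608), and was called in all 6 fits that left out an array. Lig1, the replicative DNA ligase, was at -0.58 ± 0.13 and was not called without S2 replicate 1 (adjusted p = 0.0658) or S1 replicate 3, where its adjusted p came to lie just past the threshold. Cdc6 (-0.79 ± 0.19) and Mcm7 (-0.52 ± 0.12), which load and form the replicative helicase, and Uhrf1 (-0.68 ± 0.17), a factor that copies DNA methylation, were called in 2, 2 and 0 of the 6 fits, with adjusted p up to 0.142, 0.127 and 0.163. The list had 1 called member without S2 replicate 1 or S1 replicate 3, and 3 without S2 replicate 2, S1 replicate 1 or S1 replicate 2.

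The Cdc6 and Mcm7 promoters carry the E2F motif TTCCCGC, in capitals as its reverse complement, and are shown because E2F proteins are the textbook regulators of replication genes. The Cdc6 stretch is chr11:98907901-98908200, plus strand, with the motif starting 138 bases before the start, and the Mcm7 stretch is chr5:138171834-138172133, minus strand, with the motif at 165 bases (RefSeq, GRCm38.p6).
Cdc6: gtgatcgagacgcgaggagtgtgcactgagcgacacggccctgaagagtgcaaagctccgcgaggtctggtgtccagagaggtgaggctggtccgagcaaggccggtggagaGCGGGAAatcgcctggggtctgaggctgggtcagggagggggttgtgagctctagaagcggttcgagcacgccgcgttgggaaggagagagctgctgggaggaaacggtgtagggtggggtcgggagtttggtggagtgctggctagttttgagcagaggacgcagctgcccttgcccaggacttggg
Mcm7: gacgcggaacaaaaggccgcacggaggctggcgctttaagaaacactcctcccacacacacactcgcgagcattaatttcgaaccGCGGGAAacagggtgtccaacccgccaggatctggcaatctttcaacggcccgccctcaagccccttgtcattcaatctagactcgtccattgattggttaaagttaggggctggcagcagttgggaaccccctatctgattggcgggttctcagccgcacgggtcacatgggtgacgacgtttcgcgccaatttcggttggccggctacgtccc

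The motif, searched on both strands, was in 8 of 19 replication genes with a promoter (42.1%), in 12.2% of called decreases, in 5.54% of called increases and in 8.16% of all 10213 genes. No mitosis gene was called among 24, of which 23 had negative differences, with a median of -0.29, and 1 had an unadjusted limma p under 0.05. Top2a, the mitotic topoisomerase, had 9.24, 9.41 and 9.53 in S2 cells, against 9.83, 9.83 and 9.73 in S1 cells (-0.40 ± 0.21, adjusted p = 0.37). The mitosis list averaged 8.57, 8.63 and 8.75 on the S1 arrays, 8.16, 8.37 and 8.64 on the S2 arrays and 5.59, 5.70 and 6.38 on the S3 arrays. The S2 arrays lay close to the S1 arrays on this list and far above the S3 arrays.

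Growth and metabolic genes gave no limma calls. Of 19 MYC and ribosome biogenesis genes 18 had negative differences (median -0.15), of which 4 had an unadjusted p under 0.05 (2143 of all 13034 genes). Myc was at 0.24 ± 0.14. Of 13 glycolysis genes 1 had an unadjusted p under 0.05, Hk2 at -0.46 ± 0.15. None of 17 oxidative phosphorylation genes did, and their differences ran from -0.15 to 0.14. Of 13 sterol synthesis genes 6 had an unadjusted p under 0.05, among them Insig1 at 0.55 ± 0.18 and Sqle at -0.50 ± 0.18, in opposite directions.

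Markers of other cells were measured in the same arrays. Of 9 genes of conventional mature T cells 3 fell (33.3%, against 1.14% of all genes), Igfbp4, Lef1 and Ccr7. The list averaged 7.53, 7.89 and 7.6 on the S2 arrays and 8.22, 8.20 and 7.84 on the S1 arrays. These 3 genes were also members of the results above. Cd4 was at -0.22 ± 0.14, Cd8b1 at 0.19 ± 0.30, and Cd8a was below the filter at 4.53 in S2 cells and 4.08 in S1 cells. Of 12 macrophage and dendritic cell genes none was called by limma. Of these, 9 had positive differences (list median 0.29) and 5 an unadjusted p under 0.05 (2143 of all 13034 genes). Lyz2 had 4.78, 5.22 and 4.82 in S2 cells, against 4.13, 3.72 and 3.91 in S1 cells (1.02 ± 0.34, adjusted p = 0.12), and C1qb was at 0.61 ± 0.23 (adjusted p = 0.182). That list averaged 6.02, 6.07 and 6.12 on the S2 arrays and 5.98, 5.50 and 5.70 on the S1 arrays. Every S2 array lay above every S1 array on this list, and so they did in 5 of its 12 genes (10.1% of all genes). Csf1r was at 4.89 in S2 cells and 4.91 in S1 cells and Itgax at 3.98 and 4.0.

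Of 6 NK and innate lymphoid genes 4 had positive differences (median 0.20) and 1, Klrb1f, rose (16.7%, against 2.7% of all genes). That list, Klrb1f included, averaged 5.56, 5.63 and 5.75 on the S2 arrays and 5.20, 5.25 and 5.44 on the S1 arrays. Its defining genes Ncr1 (4.09 in S2 cells, 4.22 in S1 cells) and Eomes (3.57 and 3.84, below the filter) were under the array medians. Of 7 B cell genes 3 were tested, and none was called by limma. All 3 had positive differences (median 0.42) and 2 an unadjusted p under 0.05 (2143 of all 13034 genes). These were Cd79b (0.48 ± 0.21, adjusted p = 0.256) and Ighm (0.42 ± 0.15, adjusted p = 0.152). The 3 genes averaged 6.78, 6.69 and 6.29 on the S2 arrays and 6.24, 6.19 and 6.24 on the S1 arrays. On both lists every S2 array lay above every S1 array. Cd79a (4.36 in S2 cells, 4.40 in S1 cells) and Ms4a1 (3.36 and 3.37) were below the filter and under the array medians. Of 6 gamma-delta T cell genes 3 were tested, and 1 rose (33.3%, against 2.7% of all genes). This was Blk, which is also on the NKT17 list, while Sox13 and Cd163l1 were not called. The receptor genes Trdc, Trgc1 and Trdv4 were not matched to a single-symbol probe set and were not tested. Of 3 regulatory T cell genes tested 1 rose (33.3%, against 2.7% of all genes), Il2ra, which these cells share with activated T cells. Foxp3 was below the filter at 4.22 in S2 cells and 4.34 in S1 cells. The part of other cells in the results was not tested.

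Of the called increases, 66 of 352 (18.8%) lay beside another called increase in the RefSeq order of tested genes, in 32 runs, and 11 of 149 decreases (7.38%) lay in 5 runs. A larger set of calls gives more neighbours, so these shares are not compared. The longest run was Gimap5, Gimap3, Tmem176b and Tmem176a on chromosome 6. The receptor genes Il12rb2 and Il23r adjoin there, as do Il17re and Il17rc. Il18r1 and Il18rap are neighbours on chromosome 1, and so are Rgs2 and Rgs1. Rgs2 was not called without S2 replicate 1, 2 or 3 or S1 replicate 1 or 2, with limma adjusted p up to 0.185. Among decreases, Igfbp4, Tns4 and Ccr7 adjoin on chromosome 11, and Lztfl1 and Ccr9 on chromosome 9. These runs were picked after their values were seen.

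In Mst1KO mice the same step was compared by the difference of the 2 changes, a contrast on 12 arrays. Stk4, which encodes MST1, had 7.54, 7.49 and 7.40 in Mst1KO S2 cells and 7.91, 7.73 and 7.83 in WT S2 cells. In S1 cells it had 7.56, 7.6 and 7.67 in Mst1KO and 8.10, 7.90 and 7.70 in WT, so the arrays of the genotypes did not overlap at either stage. The difference is small, and a probe set can cover parts of the transcript that a floxed deletion leaves in place. Its change between the stages was -0.13 ± 0.11 in Mst1KO and -0.07 ± 0.11 in WT.

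Most of the WT change had no detectable difference between the genotypes. Of 13034 genes 2 were called for it by limma (0.0153%), Rnf43 and Laptm4b, while Mst1KO had called increases in 3.77% and decreases in 2.9% of all genes. Both genotypes shared 223 called increases (45.3% of those in Mst1KO, 63.4% of those in WT) and 91 decreases (24.1% of those in Mst1KO, 61.1% of those in WT). Rnf43, a ubiquitin ligase that removes Wnt receptors, had 7.87, 7.88 and 7.73 in Mst1KO S2 cells, against 6.58, 6.43 and 6.53 in Mst1KO S1 cells. In WT it had 6.79, 6.33 and 6.58 in S2 cells, against 6.74, 6.91 and 7.17 in S1 cells. It thus rose in Mst1KO (1.31 ± 0.13) and did not pass the test in WT (-0.38 ± 0.13), and the changes differed by 1.69 ± 0.18 (adjusted p = 0.00108).

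Laptm4b, a lysosomal membrane protein gene, had 8.77, 7.99 and 8.32 in Mst1KO S2 cells, against 4.38, 4.87 and 4.61 in Mst1KO S1 cells. In WT it had 9.01, 8.49 and 8.26 in S2 cells, against 7.40, 7.0 and 7.27 in S1 cells. The genotypes overlapped in S2 and were far apart in S1. The change was 3.74 ± 0.21 in Mst1KO and 1.37 ± 0.21 in WT, a difference of 2.37 ± 0.30 (adjusted p = 0.00424). Its neighbour Matn2 was lower on all Mst1KO arrays than on any WT array at each stage. It rose in WT too (0.96 ± 0.21, adjusted p = 0.0152) and had a difference of 0.85 ± 0.30 between the changes, which was not called (adjusted p = 0.557).

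The next lowest p-values did not pass the test. The change of Il1r1 was 5.28 ± 0.29 in Mst1KO and 3.23 ± 0.29 in WT, a difference of 2.05 ± 0.40 (adjusted p = 0.191), and Mmp25 differed by 1.73 ± 0.35 (adjusted p = 0.191). Klrb1b was at 1.84 ± 0.34 (adjusted p = 0.151), Dhx35 at 0.84 ± 0.16 (0.151), Lrrn2 at 0.76 ± 0.13 (0.0848) and Neurl3 at -1.43 ± 0.29 (0.191). Among the genes with the largest WT increases, Il12rb2 changed by 0.37 ± 0.33 in Mst1KO and 2.46 ± 0.33 in WT (difference -2.09 ± 0.47, 95% interval -3.07 to -1.10, adjusted p = 0.266). Stat4 changed by 0.81 ± 0.29 in Mst1KO and 2.69 ± 0.29 in WT (difference -1.88 ± 0.41, 95% interval -2.75 to -1.02, adjusted p = 0.224). Serpinb1a (1.79 ± 0.37, adjusted p = 0.197) and Ccr6 (1.61 ± 0.37, adjusted p = 0.284) had larger changes in Mst1KO. A difference that was not called is not shown to be equal between the genotypes.

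**Figure D5:**
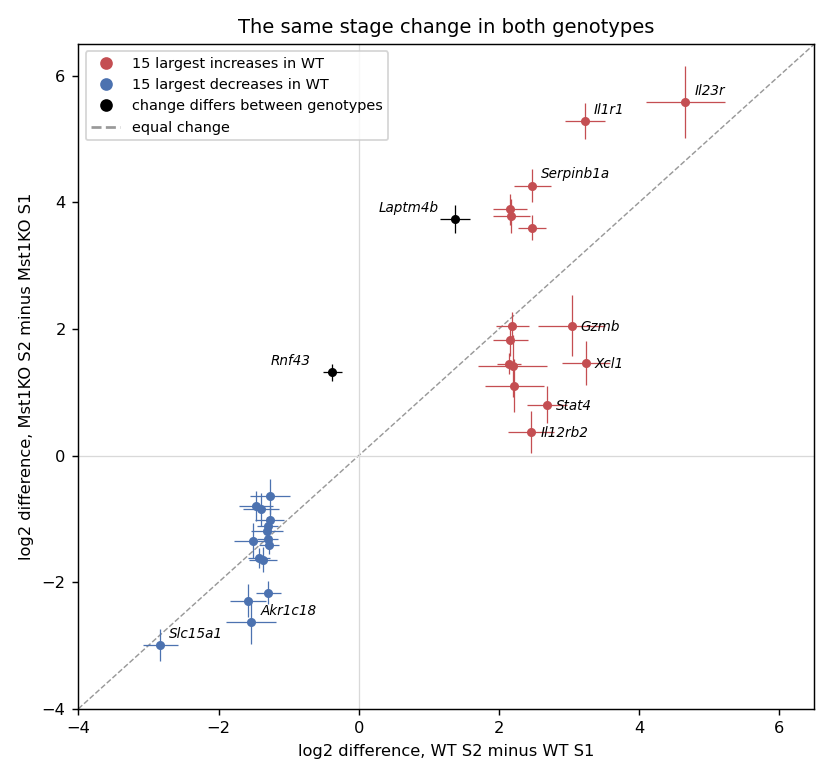
Log2 difference, S2 minus S1, in Mst1KO (y axis) against WT (x axis) for the 15 largest called WT increases (red), the 15 largest called WT decreases (blue) and the 2 genes whose change differed between genotypes (black), with SE bars (n = 3 arrays per group) and the line of equal change. Rnf43 and Laptm4b lie above the line, and Stat4 (0.81 in Mst1KO, 2.69 in WT) and Il12rb2 (0.37, 2.46) lie furthest below it without a called difference.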

How the data were processed

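The values are log2 expression per probe set from Affymetrix MoGene-2_0 arrays of 18 samples, which the authors deposited as RMA values; the submitters' processing notes name Expression Console 1.1. RMA removes background, equalises the distribution of the arrays and combines the probes of a set, so changes of dim genes are compressed. The level of summary and the annotation behind the probe sets are not given in the sources used here. The labels' protocols amplified the RNA of sorted cells with a NuGEN kit after an enrichment with CD8 microbeads, whose direction is uncertain. Depth has no meaning for arrays; 3 arrays per group limit the precision.

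A single gene symbol was listed for 23521 of 41345 probe sets, while 1814 had several and 16010 had none. A single-symbol probe set was kept if 3 or more of the 18 arrays put it higher than the median of that array (13702), with the brightest for each of 513 genes that had several, which left 13034 genes. A total of 186 identifiers were not in the RefSeq table. The test was limma 3.58.1 (R 4.3.3), fitted to the means of the 6 groups, with Benjamini-Hochberg adjustment over the 13034 genes of each comparison and a threshold of 0.05. Intervals are 95%. Lists were read from their counts and medians, without a set test. The members and lists, and the rule for naming genes, were chosen with earlier results of these data known. The rule names the genes of the gates, the 15 largest increases and decreases without overlap, up to 4 members of a list by p, the 8 lowest p-values for the genotype difference and any other list member with its values.

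In data simulated for this comparison on 13034 genes, limma recovered 42.5% of genes changed by 0.5 log2 units, 93.7% of those changed by 1 and 99.5% of those changed by 2, and 5.6% of calls were false. Alternatives were other filters, repeated quantile normalization, median centring, a robust variance trend, weighted arrays, averaged probe sets, a minimum fold of 1.5, fewer arrays in the fit, a replicate block and leaving out each array. Python 3.11.15 with pandas 2.3.3 handled the tables, and matplotlib 3.10.9 the figures.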

Additional observations from a re-analysis of the deposited data

Results flagged for a closer look

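The S1 to S2 change differed between the genotypes in 2 genes, by the interaction term of limma. For Rnf43 the change in Mst1KO exceeded that in WT by 1.69 (95% interval 1.30 to 2.08, adjusted p = 0.00108), with every Mst1KO S2 array above every Mst1KO S1 array and S2 means under S1 means in WT. For Laptm4b the excess was 2.37 (95% interval 1.73 to 3.01, adjusted p = 0.00424), with both genotypes higher in S2 and the Mst1KO arrays lower in S1. Both were called in all 12 fits that left out an array of the 4 groups, and neither at a minimum fold of 1.5 (adjusted p = 0.068 each).

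Probe sets outside the gene comparison also carried calls between WT S2 and WT S1. Of 1021 with several symbols 13 were called (12 higher, 1 lower), and of 8443 with no symbol 12 were called (9 higher, 3 lower). They are not named here. Groups of 3 arrays were not screened for outlying samples.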

How the results depend on the processing

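The count of 501 genes called between WT S2 and WT S1 was 41 at a minimum fold of 1.5, 195 when only the groups compared were fitted and 274 with only the 9 WT arrays, the last 2 with fewer arrays behind the variance. It ran from 295 to 494 when single arrays were left out, with 295 without S2 replicate 1, 309 without S1 replicate 1 and 321 without S1 replicate 2. With no filter it was 398, with a stricter filter 556, with quantile normalization repeated 538, with median centring 457, with a robust variance trend 619, with weighted arrays 473 and with averaged probe sets 487. Increases were 64.7% to 87.8% of the calls over these settings, against 70.3% as reported, and 87.8% at the minimum fold. Of 104 called genes named in the text, 42 lost their call when only the groups compared were fitted, among them Fos, Fosb, Ahr, Ccl5 and Cxcr6. With only the 9 WT arrays 27 lost it, and at the minimum fold 76. No called gene named in the text turned its direction under any of these settings, but several of them could not turn one. The robust variance trend, the minimum fold and the fits on fewer groups leave a difference as it is.

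The replicate number as a block gave 526 calls, of which 434 were among the 501. The deviations of same-numbered S2 and S1 arrays correlated at 0.0936, 0.142 and 0.206 across genes, each the highest for its number, which is a hint from the data and not part of the design. The genotype difference had 0 calls at a minimum fold of 1.5 by limma (adjusted p = 0.068 for both genes), and 2 to 6 when single arrays were left out, with 6 without WT S2 replicate 2 and 4 without Mst1KO S2 replicate 2.

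The signs that turned were of uncalled genes near 0. Over the fits that left out a WT S2 or S1 array, the difference ran from -0.050 to 0.29 in Cd24a, -0.015 to 0.41 in Cd8b1, -0.11 to 0.068 in Csf1r, -0.16 to 0.085 in Il17rb, -0.13 to 0.12 in Itgax, -0.12 to 0.24 in Klrb1b, -0.080 to 0.17 in S1pr1, -0.29 to 0.062 in Sox13 and -0.17 to 0.027 in Stk4. With median centring Csf1r was at 0.0066 and Il17rb at 0.0056, and with quantile normalization repeated Csf1r was at 0.0021. The causes were not tested. With 3 arrays per group, differences of about 0.5 units were often missed in simulated data (42.5% recovered), and genes near the array medians have compressed changes.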

Other observations

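Of 169 microRNA precursor genes tested 3 rose (1.78%, against 2.7% of all genes) and none fell by limma (1.14% of all genes). An unadjusted limma p under 0.05 was found in 21 (2143 of all 13034 genes). The shares called are near those of all genes and are not a result about microRNA genes. Mir1938 had 9.85, 9.40 and 9.33 in S2 cells, against 9.16, 8.55 and 8.80 in S1 cells (0.69 ± 0.15, adjusted p = 0.0151). Mir5125 was at 0.46 ± 0.12 (adjusted p = 0.0347) and Mir692-1 at 0.32 ± 0.08 (adjusted p = 0.0356). The S2 arrays lay above the S1 arrays in all 3 genes, with S1 replicate 2 close to S2 replicate 2 in Mir5125. These genes were chosen after their values were seen, and the array does not tell a precursor from its host transcript.

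Interferon-stimulated genes showed 1 call among 15 (6.67%, against 2.7% of all genes), Ifit1 at 0.52 ± 0.14 (adjusted p = 0.0461). It was called in 1 of 6 fits that left out an array, with adjusted p up to 0.189. The BCL2 family showed 1 call among 11 (9.09%, against 2.7% of all genes). This was Bcl2l11, the gene for the death inducer BIM, at 0.71 ± 0.19 (adjusted p = 0.0416). It was not called without S2 replicate 1 (0.186), S2 replicate 3 (0.117), S1 replicate 1 (0.113) or S1 replicate 2 (0.193).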
